A study of Mus musculus with 18 samples.

Results

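The 40 genes described here mark endothelial cells, the lining of blood vessels, or act in the growth of vessels. They were chosen by symbol from a list of endothelial junction, receptor, transcription factor and islet capillary genes with the Notch ligand and target genes of endothelium, and all 40 were found among the 24346 gene symbols measured. RNA was sequenced from isolated islets of Langerhans, the endocrine clusters of the pancreas, of C57BL/6 mice of 2 genotypes, with exon 2 of Cdh13 deleted (deleted) or flanked by loxP sites and intact (floxed). Cdh13 encodes T-cadherin, a cadherin without a cytoplasmic tail that binds adiponectin and is made by endothelium among other cells. Each genotype was sampled as chow-fed mice aged 8 weeks, as chow-fed mice aged 14 weeks, and as mice aged 14 weeks that had eaten a high-fat diet for the last 6, from week 8 on. Every one of the 6 groups had 3 libraries, 18 in all. The series text calls the genotypes knockout and wild type, and the labels name no Cre driver. Whether a library stands for its own animal is not said in the labels, so the p-values here measure the spread between these samples, which may be technical.

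Islets are dense in capillaries, whose endothelium is thin, pierced by pores closed with diaphragms, and kept by vascular endothelial growth factor A that the endocrine cells make. Endothelial cells hold to each other through junction proteins of the cadherin, immunoglobulin and claudin families, and read growth factors through the VEGF and angiopoietin receptors, which are tyrosine kinases. Signals between neighbouring cells run through the Notch ligand Dll4 and its receptors, and the SOX and ETS families of transcription factors hold the endothelial gene programme in place.

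Values are gene-level FPKM (fragments scaled to transcript length and to the size of the library). A gene was tested where at least 3 of the 18 libraries had at least 1 FPKM, which left 12234 genes and 35 of the 40 members. Cldn5, Ptprb, Apln, Vwf and Erg did not pass this filter. Differences are given on the scale of log2(FPKM + 1), which understates the change of genes at low FPKM, with the standard error (SE) and an adjusted p from limma (Benjamini-Hochberg over the 12234 genes). Genes with an adjusted p below 0.05 are the called ones. The number of fragments in each library is unknown. The libraries summed to between 903346 and 1394009 FPKM, and between 11474 and 11787 genes reached 1 FPKM in each.

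Cdh13, the targeted gene, was low in every library and lower in the deleted than in the floxed libraries of each condition, with no overlap. It averaged 1.34 ± 0.433 FPKM in floxed and 0.632 ± 0.242 FPKM in deleted islets at 8 weeks (mean ± SD, n = 3 libraries, as throughout). Floxed and deleted islets averaged 1.67 ± 0.366 and 0.551 ± 0.136 FPKM in chow-fed mice of 14 weeks, and 1.33 ± 0.141 and 0.456 ± 0.308 FPKM on the high-fat diet. Tested within a condition, Cdh13 was called on the high-fat diet (-0.69, limma adjusted p = 0.0107) and not at 8 weeks (-0.51, limma adjusted p = 0.179) or at 14 weeks on chow (-0.78, limma adjusted p = 0.0674). Over the mean of the 3 conditions the difference was -0.66 (SE 0.10, limma adjusted p = 0.000591). A gene-level value covers all exons, so it does not read the deleted exon by itself.

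Of the 8 members taken as defining markers of endothelium, 7 were above 0 in every library, although not all at a high level. Plvap, the protein of the diaphragms, averaged 46.0 FPKM over the 18 libraries, Esam 28.1, Kdr 18.9, Egfl7 15.2, Pecam1 13.2, Tie1 3.34 and Cdh5, the cadherin of endothelial junctions, 1.60 FPKM. Cldn5, the claudin of tight barriers, averaged 0.417 FPKM and was listed at 0 in 3 libraries. Ordered by level per transcript length, the members ran from Igfbp3 (51.2 FPKM), Plvap, Emcn (34.8), Esm1 (34.0) and Esam down to Erg (0.387) and Vwf (0.133). Neighbours in this order often did not differ beyond their spread over libraries: Emcn lay between 23.0 and 45.4 FPKM and Esm1 between 27.1 and 43.5 FPKM. In islet RNA as a whole, fewer endothelial cells and less RNA per endothelial cell cannot be told apart.

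**Figure D1:**
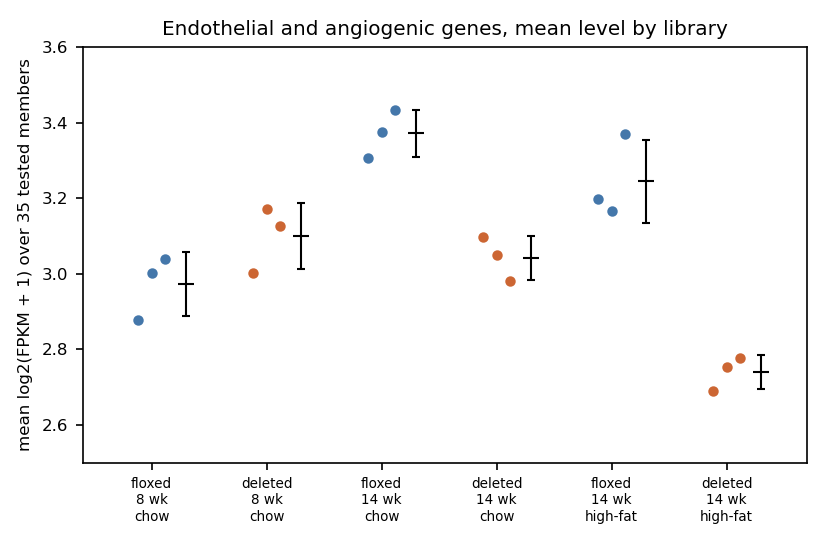
Mean log2(FPKM + 1) over the 35 tested members (vertical axis) in each of the 18 libraries (points), by group, with blue for floxed and orange for deleted islets and bars for the group mean and SD. The 3 deleted libraries on the high-fat diet lie between 2.69 and 2.78, below the 15 others, and the 3 floxed libraries on the same diet between 3.17 and 3.37.

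The mean level of the 35 members was lowest in the deleted islets on the high-fat diet, as the plot of mean level by library shows. It lay between 3.31 and 3.43 in floxed islets at 14 weeks on chow and between 2.98 and 3.10 in deleted islets of that age and diet. At 8 weeks the order of the genotypes was the other way, although their ranges overlapped: 2.88 to 3.04 in floxed and 3.00 to 3.17 in deleted libraries. The same mean over all tested genes stayed between 3.61 and 3.65 in every library. Summed over the 40 members, the level was 315 to 348 FPKM in deleted and 475 to 543 FPKM in floxed islets on the high-fat diet.

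On the high-fat diet, 20 of the 35 tested members were lower in deleted than in floxed islets and none was higher. Over all tested genes, 6.02% were called lower and 4.70% higher in this comparison. In each of the 20 the 3 deleted libraries lay below the 3 floxed libraries. Calls and such separation come from the same values, so here and below a lack of overlap is a description and not further support. The median difference was -0.44 over the members and 0.01 over all tested genes, and 32 of 35 members were below 0. By limma, 25 members had an unadjusted p under 0.05, all of them below 0. Counts at an unadjusted p, here and below, stand without the share of all tested genes, so they are descriptions only. Leaving out library 3 of the floxed high-fat group brought the count from 20 to 13, the only library of the 18 to move it by over 1.5 times. Without that library Robo4, Ecscr, Tek, S1pr1, Sox7, Sox18 and Rasip1 were no longer called. The other 13 calls held in every alternative that tested them.

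The members that fell the most were Igfbp3, Aplnr, Sparcl1 and Gpihbp1. Igfbp3, a secreted protein that binds insulin-like growth factors (gene at chr11:7206086-7215498, GRCm38), measured 73.1, 79.3 and 69.3 FPKM in the floxed and 21.7, 27.8 and 28.0 FPKM in the deleted libraries. The lowest floxed library was thus above every deleted library by a wide margin, and the difference was -1.49 (SE 0.14, limma adjusted p = 3.87e-06). Sparcl1, a secreted matrix protein related to SPARC (chr5:104079108-104114088), measured 10.2, 13.5 and 16.3 FPKM in floxed and 3.92, 3.91 and 5.08 FPKM in deleted libraries. Its difference was -1.42 (SE 0.15, limma adjusted p = 5.28e-06). Of the other secreted members, Egfl7, which endothelial cells deposit in the vessel wall, measured 13.6, 15.2 and 15.3 FPKM against 10.3, 10.2 and 10.1 FPKM, a difference of -0.48 (SE 0.11, limma adjusted p = 0.0067). Esm1, a proteoglycan of sprouting endothelium, did not pass the test: it measured 30.5, 31.0 and 35.8 FPKM in floxed and 36.4, 36.4 and 33.2 FPKM in deleted libraries, which overlap.

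Gpihbp1 anchors lipoprotein lipase on the capillary surface (chr15:75596630-75598213). It measured 46.0, 41.7 and 44.2 FPKM in floxed and 13.0, 15.3 and 21.3 FPKM in deleted islets on the high-fat diet, a difference of -1.38 (SE 0.14, limma adjusted p = 4.39e-06). The other 2 members with a role in the lumen and its signalling also fell. Nos3, the endothelial nitric oxide synthase, measured 1.93, 2.01 and 2.46 FPKM against 1.05, 1.27 and 0.607 FPKM and differed by -0.67 (SE 0.14, limma adjusted p = 0.00364). Rasip1, which is needed for a vessel to open its lumen, differed by -0.44 (limma adjusted p = 0.0485), a call close to the threshold that 16 of 25 alternatives lost.

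Among the receptors for peptides and lipids, Aplnr, the receptor of apelin (chr2:85136360-85139923), measured 2.18, 2.37 and 3.66 FPKM in floxed and 0.288, 0.371 and 0.386 FPKM in deleted libraries. Every deleted library was under 1 FPKM, and the difference was -1.45 (SE 0.20, limma adjusted p = 7.47e-05). With a pseudocount of 0.1 in place of 1 the difference was -2.63. S1pr1, the receptor of sphingosine-1-phosphate that steadies junctions, measured 16.5, 17.6 and 18.2 FPKM against 11.7, 12.4 and 15.2 FPKM, a difference of -0.40 (SE 0.10, limma adjusted p = 0.0139). The 2 parts of the adrenomedullin receptor did not pass the test, with Calcrl at -0.29 (limma adjusted p = 0.174) and its partner Ramp2 at 0.09 (limma adjusted p = 0.743). Ramp2 lay between 12.4 and 14.6 FPKM in floxed and between 13.6 and 15.4 FPKM in deleted libraries.

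Of the 11 tested junction and surface members, 7 fell and none rose. Jam2, a junctional adhesion molecule (chr16:84774123-84826380), measured 19.6, 17.9 and 17.0 FPKM in floxed and 8.84, 8.10 and 10.4 FPKM in deleted islets, a difference of -0.93 (SE 0.10, limma adjusted p = 8.61e-06). Pecam1, the platelet and endothelial adhesion molecule (chr11:106654213-106715281), measured 11.9, 13.1 and 14.6 FPKM against 8.22, 9.37 and 10.2 FPKM, a difference of -0.47 (SE 0.11, limma adjusted p = 0.00694). Cdh5 measured 2.23, 2.14 and 2.08 FPKM against 1.21, 1.13 and 1.07 FPKM and differed by -0.56 (SE 0.11, limma adjusted p = 0.00236). The remaining 4 that fell were Cd34, a sialomucin of capillaries (-0.70), Ecscr, an endothelial surface protein that shapes cell movement (-0.57), Esam, an adhesion molecule of tight junctions (-0.56), and Robo4, a receptor that guards vessel integrity (-0.41). The 4 that did not pass were Mmrn2 (-0.45, limma adjusted p = 0.0552), a matrix glycoprotein, Emcn (-0.32), a sialomucin of capillaries and veins, Plvap (-0.29) and Ly6c1 (-0.18). Plvap measured 42.0, 46.0 and 61.7 FPKM in floxed and 38.1, 40.2 and 41.6 FPKM in deleted libraries, which do not overlap although the difference missed the threshold (limma adjusted p = 0.111). How the counting divided reads between Ly6c1 and its near-identical neighbour Ly6c2 is not given in the sources used here, so its level is uncertain.

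Among the receptor tyrosine kinases and their partners, Tie1 and Tek fell and the VEGF receptors were not called. Tie1, the orphan receptor that pairs with Tek, measured 4.61, 3.87 and 5.59 FPKM in floxed and 2.21, 2.44 and 2.57 FPKM in deleted libraries, a difference of -0.73 (SE 0.13, limma adjusted p = 0.00135). Tek, the receptor of the angiopoietins, measured 1.41, 1.64 and 2.43 FPKM against 1.04, 0.816 and 0.915 FPKM and differed by -0.54 (SE 0.14, limma adjusted p = 0.0172). The call for Tek held in 22 of 25 alternatives. Kdr, the main signalling receptor of VEGF-A (chr5:75932827-75979072), measured 13.0, 14.6 and 17.1 FPKM in floxed and 16.6, 15.8 and 15.8 FPKM in deleted libraries. These ranges overlap, and the difference was 0.11 (SE 0.14, limma adjusted p = 0.67). Flt1, the VEGF receptor that acts largely as a decoy, was at -0.35 (limma adjusted p = 0.0657), Flt4, the receptor of VEGF-C, at -0.29 (limma adjusted p = 0.154), the co-receptor Nrp1 at -0.19 (limma adjusted p = 0.33) and Eng, a co-receptor of the BMP and TGF-beta family, at -0.06 (limma adjusted p = 0.829). Whether the difference of Tie1 or Tek exceeds that of Kdr was not tested.

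In the Notch axis, the ligand Dll4 fell, with 10.8, 8.10 and 8.93 FPKM in floxed and 5.01, 5.99 and 6.95 FPKM in deleted libraries (-0.56, SE 0.13, limma adjusted p = 0.00694). The endothelial receptor Notch4 was at -0.25 and the target gene Hey1 at -0.20, and neither passed the test. Of the transcription factors, Sox18 measured 7.26, 8.22 and 10.5 FPKM against 4.37, 5.39 and 5.60 FPKM (-0.65, SE 0.15, limma adjusted p = 0.00695) and Sox7 differed by -0.44 (limma adjusted p = 0.0313), while Sox17 was at -0.25 (limma adjusted p = 0.327). These 3 are the SOX factors of the F group, which act together in arterial and lymphatic development.

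The 5 members below the filter had little signal in any group. On the high-fat diet Vwf, the factor stored for clotting, was at 0.231, 0.191 and 0.297 FPKM in floxed and at 0.0973, 0.0255 and 0 FPKM in deleted libraries. With no filter on low values its difference was -0.25 (limma adjusted p = 0.0172). Cldn5 was at 0.914, 0.271 and 0.753 FPKM in floxed and 0.319, 0 and 0 FPKM in deleted libraries, which overlap (-0.56, limma adjusted p = 0.0512 with no filter). Ptprb, the phosphatase that acts on Tek, averaged 0.886 and 0.841 FPKM, the ETS factor Erg 0.473 and 0.373 FPKM, and apelin itself (Apln) 0.634 and 0.797 FPKM in floxed and deleted islets.

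**Figure D2:**
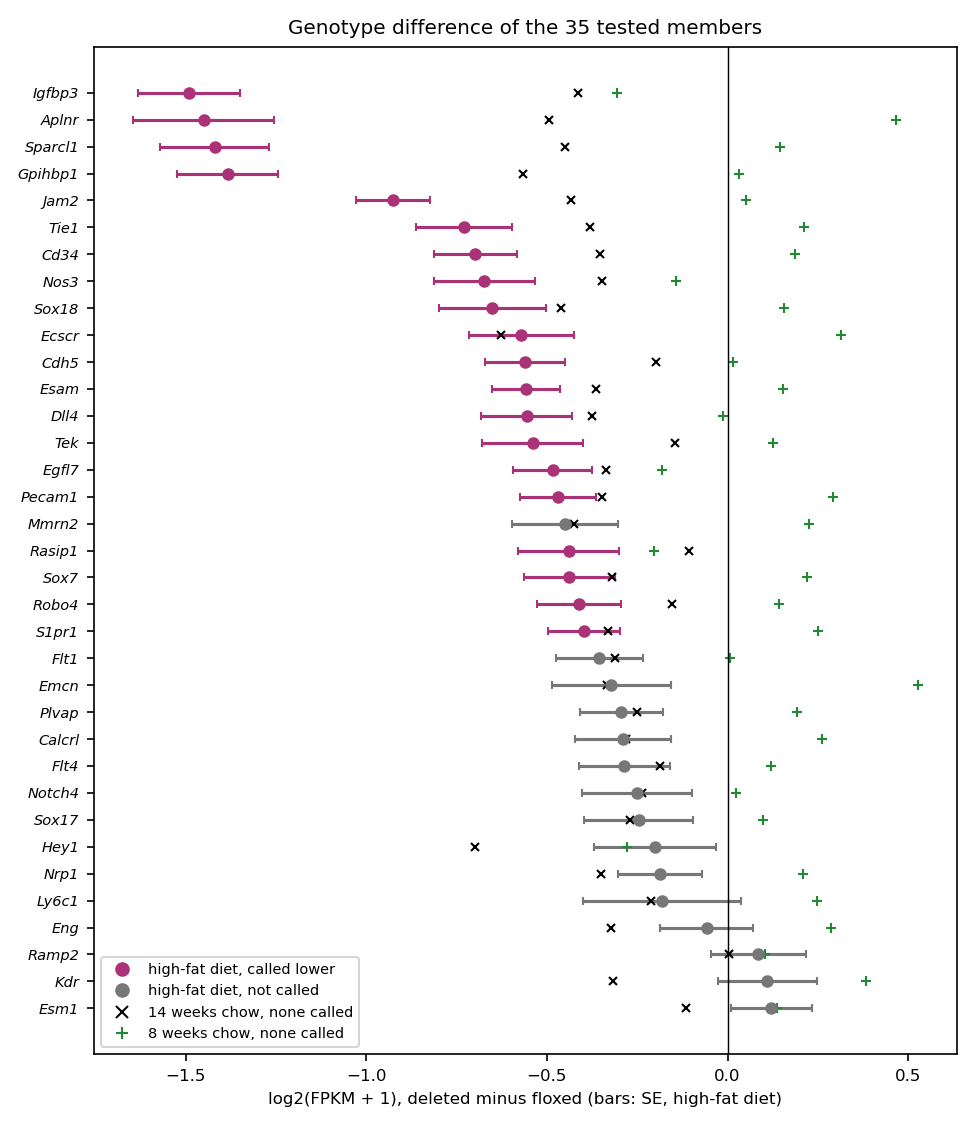
Difference of log2(FPKM + 1) between deleted and floxed islets (horizontal axis) for the 35 tested members (rows, ordered by the difference on the high-fat diet). Circles with SE bars are the high-fat diet, purple where called lower and grey where not, crosses are 14 weeks on chow and plus signs 8 weeks on chow. The circles run from -1.49 for Igfbp3 to 0.12 for Esm1, and most of the plus signs lie to the right of 0.

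Markers of other cell types moved in the same comparison. The 11 mural cell markers, of pericytes and smooth muscle around vessels, summed to 8.40 to 9.74 FPKM in deleted and 14.7 to 24.5 FPKM in floxed islets on the high-fat diet, with 2 of 5 tested markers called lower and none at 0 in every library. By group mean Tagln (1.18 in deleted and 0.696 FPKM in floxed islets) and Myh11 (0.254 and 0.227) were higher in deleted islets, and the other mural markers were lower. The 6 fibroblast markers summed to 3.05 to 6.13 and 5.42 to 17.2 FPKM, with 0 of 5 called by limma and 3 at an unadjusted p under 0.05, all 5 below 0. The 10 macrophage markers summed to 202 to 217 and 196 to 220 FPKM, a sum whose members moved in opposite directions. By group mean C1qa (20.1 in deleted and 33.7 FPKM in floxed islets), C1qb (31.9 and 37.8) and C1qc (17.5 and 22.9) were lower in deleted islets. Lyz2 (99.2 and 78.3 FPKM) and Cd68 (30.1 and 26.9) were higher. Among the rest, at lower levels, Adgre1 was lower and Csf1r, Mrc1, Cd14 and Cx3cr1 were higher. The 7 platelet markers summed to 2.43 to 4.37 and 2.75 to 3.61 FPKM, with Gp6 at 0 in both groups and Ppbp at 0 in the deleted one. The 6 lymphatic markers summed to 7.37 to 7.66 in deleted and 4.76 to 5.57 FPKM in floxed libraries, with Mmrn1 and Ccl21a at 0 in all. Most of the lymphatic sum was Prox1 (group means 4.62 in deleted and 3.07 FPKM in floxed islets) and Lyve1 (2.2 and 1.62), while Pdpn and Reln had little signal. The 5 erythroid markers summed to 0.701 to 2.86 and 5.34 to 8.73 FPKM, with Hbb-b2 at 0 in the deleted libraries, and 2 of 3 tested were called lower. The 5 alpha cell markers summed to 35540 to 45809 FPKM in deleted and 22950 to 27767 FPKM in floxed libraries. The 6 duct markers summed to 859 to 917 and 941 to 1017 FPKM. Most of the duct sum was Krt7 (group means 722 in deleted and 784 FPKM in floxed islets) and Spp1 (156 and 197). Krt19 (2.58 and 0.931 FPKM) and Muc1 (1.91 and 1.57) went the other way, and Sox9 and Cftr had little signal. The part of these cell types in the result was not tested.

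Of 97 further genes of vessel biology, listed by pathway, 69 were tested, and on the high-fat diet 11 were lower and 5 higher in deleted islets, with a median difference of -0.16. Over all tested genes 6.02% were called lower and 4.70% higher, so the count of higher pathway genes was near the share of all genes. By the smallest p, the called genes were Cd36, Ets1, Mcam, Ackr3, Icam2 and Angptl4. Ets1, an ETS transcription factor of endothelium, measured 5.74, 5.19 and 5.76 FPKM in floxed and 2.81, 2.99 and 2.99 FPKM in deleted libraries (-0.74, SE 0.11, limma adjusted p = 0.000278). Mcam, an adhesion molecule of endothelium and pericytes, was at -0.83, Ackr3, a scavenging receptor of CXCL12, at -1.10, Icam2 at -0.95 and Angptl4, an inhibitor of lipoprotein lipase, at -0.62. Cd36, a fatty acid receptor, was higher: 6.08, 5.65 and 8.03 FPKM in floxed and 12.2, 13.0 and 10.8 FPKM in deleted libraries (0.78, SE 0.11, limma adjusted p = 0.000116). The ligand Vegfa did not pass the test, with 82.0, 84.4 and 76.4 FPKM in floxed and 75.9, 85.3 and 96.9 FPKM in deleted libraries (0.08, limma adjusted p = 0.621). Nor did Angpt2, the context-dependent ligand of Tek (0.22, limma adjusted p = 0.172), the peptide adrenomedullin, Adm (0.04), the Notch ligand Jag1 (-0.16) or the flow-responsive factor Klf2 (-0.32).

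The promoters of members called lower in deleted islets on the high-fat diet, and of members not called there, are shown to set the sequence beside the values. Of the 40 members, 21 were matched by symbol in a RefSeq table of promoters on GRCm38.p6, with 26 windows, since Egfl7 and Erg had 3 starts each and Ly6c1 had 2. The 250 bases before each start were searched on both strands. Printed here are Igfbp3 (chr11:7213924-7214173, minus strand), Tek (chr4:94739039-94739288, plus strand) and Cd34 (chr1:194938571-194938818, plus strand), which were lower in deleted than in floxed islets on the high-fat diet, and Eng (chr2:32646345-32646594, plus strand) and Esm1 (chr13:113209409-113209658, plus strand), which were not called in that comparison. None of the printed stretches overlapped an exon of GENCODE vM21, and the last 2 of the 250 bases of Cd34 are left out because an exon starts there. The Igfbp3 stretch lies inside the RefSeq span of its gene and the Tek stretch overlaps that of Tek (chr4:94739086-94874976). In these genes the start used is thus not the outermost one. Each reads 5′ to 3′ on the strand of the gene, with capitals for the ETS strings searched, CCGGAA or CAGGAA on either strand.
Igfbp3: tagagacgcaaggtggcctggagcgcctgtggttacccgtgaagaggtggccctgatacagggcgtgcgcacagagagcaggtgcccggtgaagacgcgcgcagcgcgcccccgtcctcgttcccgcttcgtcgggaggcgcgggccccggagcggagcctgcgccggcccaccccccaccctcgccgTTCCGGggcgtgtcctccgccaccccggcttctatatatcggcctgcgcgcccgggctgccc
Tek: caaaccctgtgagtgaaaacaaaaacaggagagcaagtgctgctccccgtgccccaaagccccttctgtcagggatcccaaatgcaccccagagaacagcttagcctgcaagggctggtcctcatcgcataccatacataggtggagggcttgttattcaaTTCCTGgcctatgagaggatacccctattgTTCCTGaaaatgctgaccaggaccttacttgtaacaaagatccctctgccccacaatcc
Cd34: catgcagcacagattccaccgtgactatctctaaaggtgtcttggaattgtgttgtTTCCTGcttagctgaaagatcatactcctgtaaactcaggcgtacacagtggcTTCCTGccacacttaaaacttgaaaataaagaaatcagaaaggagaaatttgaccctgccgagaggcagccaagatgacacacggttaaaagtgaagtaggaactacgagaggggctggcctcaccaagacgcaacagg
Eng: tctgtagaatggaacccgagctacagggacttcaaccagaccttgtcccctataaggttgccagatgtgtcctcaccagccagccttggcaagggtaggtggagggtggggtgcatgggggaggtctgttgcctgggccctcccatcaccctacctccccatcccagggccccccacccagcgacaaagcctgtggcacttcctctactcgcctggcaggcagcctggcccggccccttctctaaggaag
Esm1: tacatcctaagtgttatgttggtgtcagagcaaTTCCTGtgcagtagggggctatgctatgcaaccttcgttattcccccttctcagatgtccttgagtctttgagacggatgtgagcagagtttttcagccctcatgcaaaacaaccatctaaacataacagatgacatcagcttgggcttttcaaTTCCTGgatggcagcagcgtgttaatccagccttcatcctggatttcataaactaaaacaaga

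Of the ETS strings searched, CCGGAA and CAGGAA, Tek, Cd34 and Esm1 each held 2 matches, Igfbp3 held 1 and Eng held 0. Matches were thus present both among members called in that comparison and among members not called. The shorter string GGAA was not searched, and the Eng stretch holds it, so the 0 covers only the strings searched. Of the 21 matched members, 14 held a match to these ETS strings in at least 1 window, beside 38.2% of the 27018 gene symbols of the table. By window it was 15 of 26 (57.7%), beside 35.1% of the 32841 windows of the table. The RBPJ core of Notch signalling, TGGGAA, was in 4 of 26 windows (15.4%, against 21.6% of all windows). The SOX cores ACAATG or AACAAT were in 5 of 26 (19.2% against 16.2%). The core of the hypoxia response, ACGTG, was in 0 of 26 windows and in 16.6% of all, which says only that these letters are not in these windows. The windows of the members held a median of 5.5 CpG pairs, between 0 in Ly6c1 and 32 in Igfbp3, beside a median of 6 in all windows. A match is a string of letters and not a site of binding.

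The genotype difference itself changed with the diet for 3 members. Against the difference at 14 weeks on chow, that on the high-fat diet was more negative by 1.08 for Igfbp3 (interaction -1.08, SE 0.20, limma adjusted p = 0.00561), and likewise for Sparcl1 (-0.97, SE 0.21, limma adjusted p = 0.0134) and Gpihbp1 (-0.82, SE 0.20, limma adjusted p = 0.0271). Over all tested genes, 2.11% were called lower and 1.42% higher for this interaction. No member was called higher, and 8 had an unadjusted p under 0.05 by limma, of which Kdr alone was above 0 (0.43). That count stands without the share of all tested genes and is a description only. Jam2 (-0.49, limma adjusted p = 0.0656) and Aplnr (-0.96, limma adjusted p = 0.0612) lay just outside the threshold. For Igfbp3 and Sparcl1 the call held in all 26 alternatives. For Gpihbp1 it was lost in 10 of 26, with limma adjusted p up to 0.0761, among them the omission of library 1 or 2 of the deleted high-fat, library 2 or 3 of the deleted chow, library 1 or 3 of the floxed high-fat and library 1 or 2 of the floxed chow group at 14 weeks.

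The 3 genes took opposite courses on the diet by their means. Igfbp3 averaged 64.4 ± 13.0 FPKM on chow and 73.9 ± 5.07 FPKM on the high-fat diet in floxed islets, and 47.6 ± 2.85 and 25.8 ± 3.58 FPKM in deleted islets. Gpihbp1 averaged 34.7 ± 6.65 and 44.0 ± 2.17 FPKM in floxed islets and 22.9 ± 2.16 and 16.6 ± 4.30 FPKM in deleted islets. Sparcl1 averaged 12.3 ± 1.33 and 13.3 ± 3.08 FPKM in floxed islets and 8.75 ± 1.33 and 4.30 ± 0.671 FPKM in deleted islets. In floxed islets none of the 3 diet differences passed the test (adjusted p by limma 0.283, 0.0706 and 0.685 for Igfbp3, Gpihbp1 and Sparcl1), while in deleted islets all 3 fell. Of the pathway genes, Cd36 (0.86), Thbs1 (0.71) and Foxo1 (0.49) were called for this interaction, all above 0, and none was called below 0 (10 of 69 at an unadjusted p under 0.05 by limma, a description only). Over all tested genes 1.42% were called above 0 and 2.11% below 0.

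**Figure D3:**
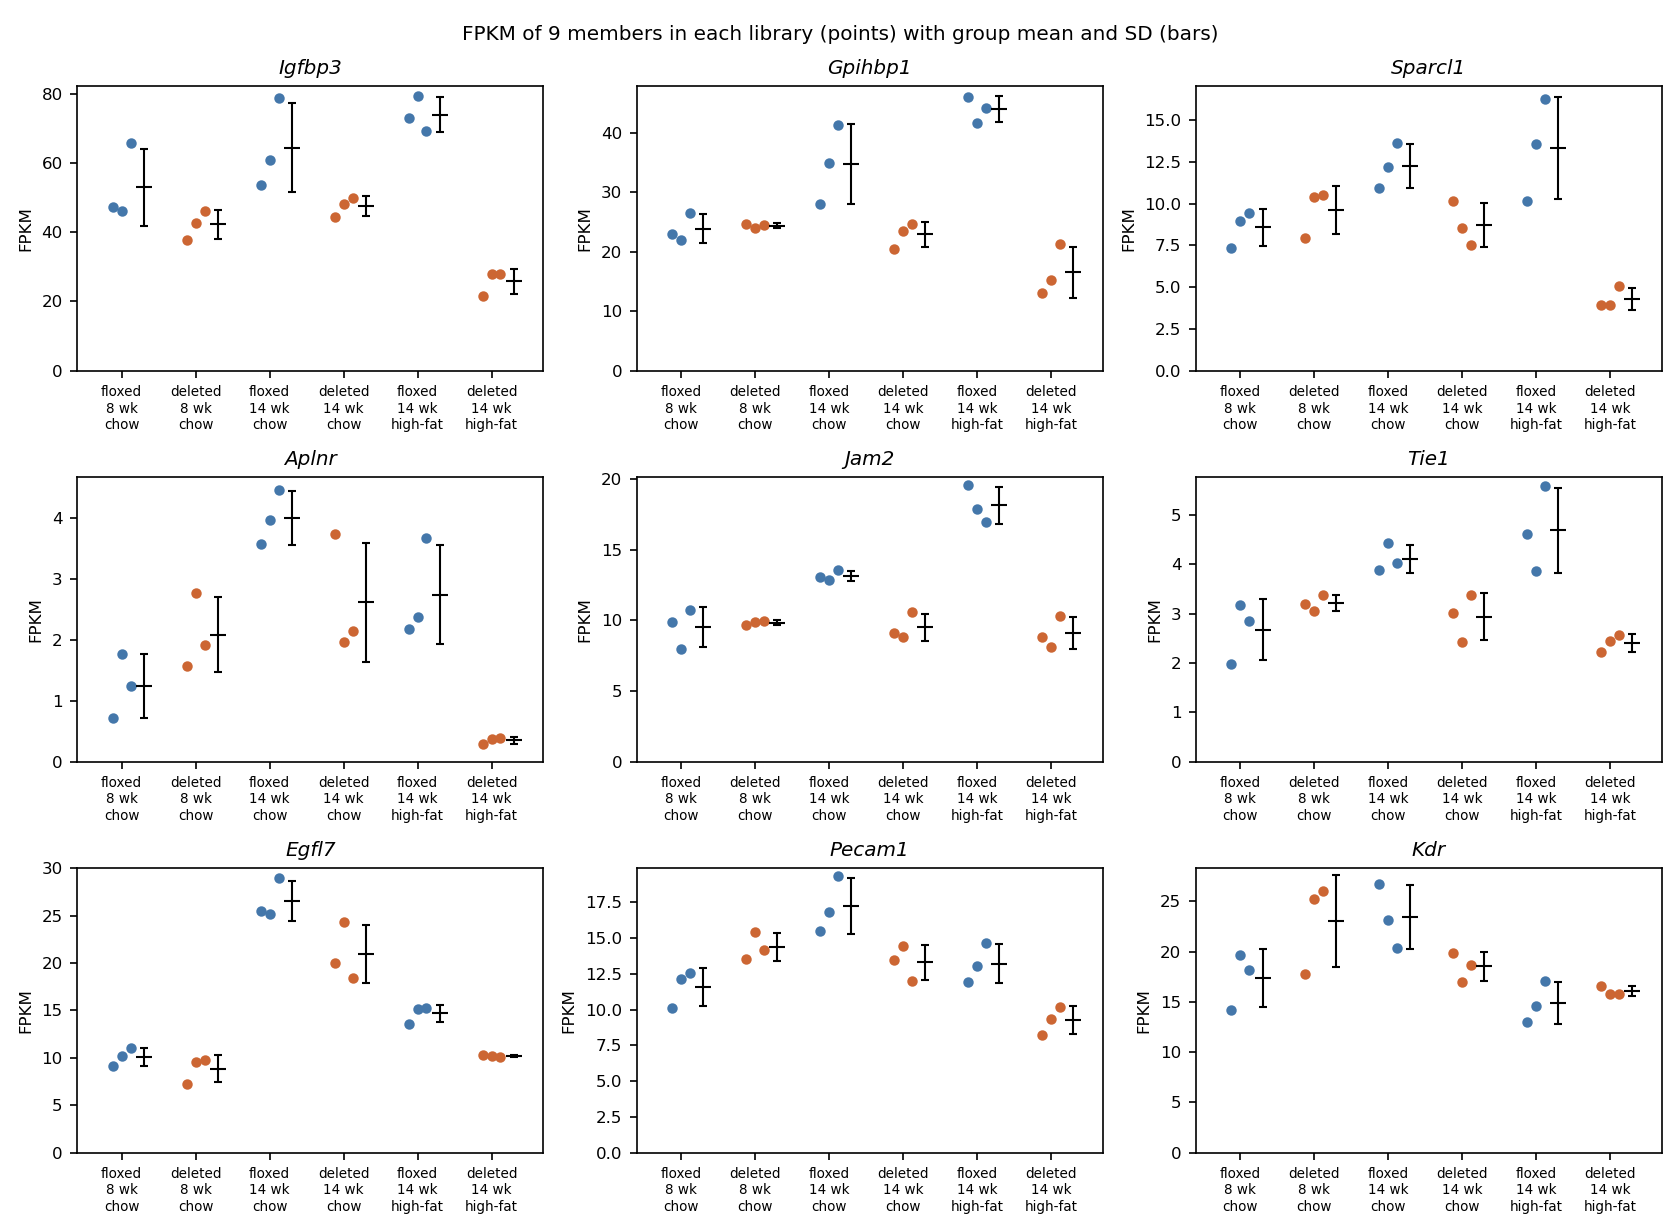
FPKM (vertical axes, from 0) of 9 members in each of the 18 libraries (points) by group, with blue for floxed and orange for deleted islets and bars for the group mean and SD. Igfbp3, Gpihbp1, Sparcl1, Aplnr, Jam2 and Tie1 separate the genotypes on the high-fat diet, Egfl7 is highest at 14 weeks on chow in both genotypes, and Kdr overlaps between the genotypes on the high-fat diet.

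At 14 weeks on chow no member was called between the genotypes, and 34 of 35 were lower in deleted islets. By limma 24 members had an unadjusted p under 0.05, all below 0. The share of all tested genes at that p is not given, so this count is a description only. Over all tested genes, 0.0490% were called lower and 0.0654% higher, so few genes of any kind passed here. The median difference was -0.34 over the members and 0.00 over all tested genes. The smallest adjusted p was 0.108, for Ecscr, Jam2 and Hey1. Ecscr measured 18.2, 25.3 and 27.0 FPKM in floxed and 16.4, 15.5 and 12.4 FPKM in deleted libraries (-0.63, SE 0.15). Jam2 measured 13.1, 12.9 and 13.5 FPKM against 9.13, 8.82 and 10.6 FPKM (-0.43, SE 0.10), and Hey1 3.06, 3.24 and 3.32 FPKM against 1.98, 1.85 and 1.05 FPKM (-0.70, SE 0.17). In these 3 the genotypes did not overlap. Ramp2 was the member above 0, at 0.00. Leaving out library 3 of the deleted high-fat group, or library 1 of the floxed chow group of this age, gave 1 call each. None of the 69 pathway genes was called. By limma 21 had an unadjusted p under 0.05, likewise a description only. Mural markers summed to 11.9 to 17.0 FPKM in deleted and 19.9 to 26.9 FPKM in floxed libraries, and macrophage markers to 267 to 332 and 334 to 380 FPKM, and their part was not tested.

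At 8 weeks the members leaned the other way and none was called. Of 35, 29 were higher in deleted islets, and the median difference was 0.14 beside -0.01 over all tested genes. An unadjusted p under 0.05 by limma was reached by 8, a description only without the share of all tested genes. Over all tested genes 0.180% were called higher and 0.368% lower. The smallest adjusted p was 0.172, for Emcn, with 24.0, 36.9 and 25.7 FPKM in floxed and 42.5, 40.3 and 41.0 FPKM in deleted libraries (0.53, SE 0.16), which do not overlap. Pecam1 measured 10.1, 12.1 and 12.6 FPKM against 13.5, 15.4 and 14.2 FPKM (0.29, SE 0.11, limma adjusted p = 0.233). Igfbp3 (-0.30), Hey1 (-0.28), Rasip1 (-0.20), Egfl7 (-0.18), Nos3 (-0.14) and Dll4 (-0.01) were the 6 members below 0. Of the pathway genes, Thbs1, an inhibitor of vessel growth, was higher in deleted islets (0.60, limma adjusted p = 0.0341) and Vegfb lower (-0.48, limma adjusted p = 0.0365).

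The genotype by age interaction compares these 2 differences. It was below 0 for 34 of 35 members, with a median of -0.48 beside 0.01 over all tested genes, and no member was called. An unadjusted p under 0.05 by limma was reached by 19, a description only without the share of all tested genes. Over all tested genes 0.147% were called lower and 0.0490% higher. The smallest adjusted p was 0.074 for Ecscr (-0.94, SE 0.21), followed by Pecam1 (-0.64, adjusted p by limma 0.0896) and S1pr1 (-0.58, adjusted p by limma 0.106). Leaving out library 1 of the deleted or library 2 of the floxed group at 8 weeks, or library 1 of the floxed group at 14 weeks on chow, gave 1 call. Among the pathway genes Ctla2a (-1.04, limma adjusted p = 0.0131) and Thbs1 (-0.86, limma adjusted p = 0.0471) were called.

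Averaged over the 3 conditions, 14 of 35 members were lower in deleted islets and none higher, beside 2.39% and 1.23% of all tested genes. An unadjusted p under 0.05 by limma was reached by 23 members, a description only without the share of all tested genes. The 14 were Igfbp3 (-0.74), Gpihbp1 (-0.64), Sparcl1 (-0.57), Aplnr (-0.49), Jam2 (-0.44), Hey1 (-0.39), Nos3 (-0.39), Egfl7 (-0.33), Sox18 (-0.32), Dll4 (-0.31), Tie1 (-0.30), Cd34 (-0.29), Esam (-0.26) and Cdh5 (-0.25). These members, apart from Hey1, were also called on the high-fat diet, while at 8 weeks 9 of the 14 were above 0, without a call. Of these, 10 were called in every alternative that tested them, and Cdh5, Tie1, Hey1 and Sox18 were lost when any of several single libraries was left out (Cdh5 in 14 of 24 alternatives). Of the pathway genes 6 were lower, among them Ets1 (-0.37), Rgcc (-0.39), Mcam (-0.33), Ephb4 (-0.32) and Vegfb (-0.21), and 2 higher, Cd36 (0.26) and Thbs1 (0.26).

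Between diets at 14 weeks, 11 of the 35 members changed in floxed islets and 12 in deleted islets. In floxed islets 8 were lower and 3 higher on the high-fat diet than on chow, beside 13.5% and 15.0% of all tested genes. In deleted islets 11 were lower and 1 higher, beside 5.91% and 9.05%. The median difference was -0.11 in floxed and -0.25 in deleted islets, beside -0.01 and 0.00 over all tested genes. The share of members called in floxed islets was thus close to that of all genes.

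The receptors and co-receptors Kdr, Flt1, Nrp1 and Eng were 4 of the 8 members that fell in floxed islets. Kdr measured 26.8, 23.1 and 20.4 FPKM on chow and 13.0, 14.6 and 17.1 FPKM on the high-fat diet, without overlap (-0.62, SE 0.14, limma adjusted p = 0.00236). Flt1 was at -0.47, Nrp1 at -0.41 and Eng at -0.49. In deleted islets Flt1 fell as well (-0.51, limma adjusted p = 0.00756), while Kdr measured 19.9, 17.0 and 18.7 FPKM on chow and 16.6, 15.8 and 15.8 FPKM on the high-fat diet (-0.19, limma adjusted p = 0.385). The interaction for Kdr did not pass the test (0.43, limma adjusted p = 0.26), so the 2 genotypes are not shown to differ in it. Hey1 fell in floxed islets (-0.56, limma adjusted p = 0.0183).

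Egfl7, Pecam1, Flt1 and S1pr1 fell in both genotypes. Egfl7 measured 25.5, 25.2 and 28.9 FPKM on chow and 13.6, 15.2 and 15.3 FPKM on the high-fat diet in floxed islets (-0.81, SE 0.11, limma adjusted p = 2.62e-05). In deleted islets it measured 20.0, 24.3 and 18.4 FPKM on chow and 10.3, 10.2 and 10.1 FPKM on the high-fat diet (-0.96, SE 0.11, limma adjusted p = 1.25e-05). Pecam1 was at -0.36 and -0.48, and S1pr1 at -0.41 and -0.47, in floxed and deleted islets. Ly6c1 rose in both, by 0.71 in floxed (limma adjusted p = 0.0207) and 0.74 in deleted islets (limma adjusted p = 0.0282), and Jam2 (0.43, limma adjusted p = 0.0038) and Rasip1 (0.39, limma adjusted p = 0.0398) rose in floxed islets.

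In deleted islets the falls on the diet also took in Aplnr, Tek, Sparcl1, Igfbp3, Gpihbp1, Sox7 and Cd34. Aplnr measured 3.74, 1.96 and 2.15 FPKM on chow against 0.288, 0.371 and 0.386 FPKM on the high-fat diet (-1.39, SE 0.20, limma adjusted p = 9.79e-05). Tek measured 2.84, 1.93 and 1.97 FPKM against 1.04, 0.816 and 0.915 FPKM (-0.74, SE 0.14, limma adjusted p = 0.00137). Sparcl1 was at -0.88, Igfbp3 at -0.86, Gpihbp1 at -0.47, Sox7 at -0.46 and Cd34 at -0.38. In these members, Gpihbp1 apart, the diets did not overlap.

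Several of these diet calls rested on single libraries. In floxed islets Nrp1 and Eng were lost without library 2 of the high-fat group, Pecam1 without library 1 of the high-fat or library 3 of the chow group, and Ly6c1, Hey1 and Rasip1 when any of 3 or more libraries was left out. In deleted islets Sox7 was lost without library 2 of the high-fat or library 1 of the chow group, and Cd34, Ly6c1 and Gpihbp1 when any of 4 libraries was left out. The 9 acinar enzyme markers, from the exocrine pancreas around the islets, summed to 906 to 4522 FPKM in floxed and 1367 to 2514 FPKM in deleted islets at 14 weeks on chow, and to 19.6 to 291 and 82.6 to 173 FPKM on the high-fat diet. Fibroblast markers went from 16.5 to 34.6 FPKM on chow to 5.42 to 17.2 FPKM on the high-fat diet in floxed islets, and from 14.5 to 26.2 FPKM to 3.05 to 6.13 FPKM in deleted islets. Macrophage markers went from 334 to 380 FPKM to 196 to 220 FPKM in floxed and from 267 to 332 FPKM to 202 to 217 FPKM in deleted islets. The largest drop by group mean was that of Lyz2, from 192 to 78.3 FPKM in floxed and from 170 to 99.2 FPKM in deleted islets. Of the other macrophage markers, C1qa alone went up in floxed islets (28.8 to 33.7 FPKM) and Mrc1 alone in deleted islets (0.148 to 0.23 FPKM). The erythroid markers went from 9.43 to 14.3 FPKM to 5.34 to 8.73 FPKM in floxed and from 15.1 to 16.7 FPKM to 0.701 to 2.86 FPKM in deleted islets. The mural markers went from 19.9 to 26.9 FPKM to 14.7 to 24.5 FPKM in floxed and from 11.9 to 17.0 FPKM to 8.40 to 9.74 FPKM in deleted islets. By group mean in floxed islets Pdgfrb (6.08 to 4.81 FPKM), Acta2 (5.53 to 1.45), Des (1.71 to 1.42) and Tagln (2.9 to 0.696) went down. Kcnj8 (4.16 to 5.84 FPKM), Rgs5 (0.805 to 1.36), Cspg4 (0.595 to 0.789) and Abcc9 (0.839 to 1.05) went up, as did Myh11, Notch3 and Higd1b at lower levels. In deleted islets Pdgfrb, Acta2, Des, Tagln, Kcnj8 and Abcc9 went down and the other mural markers up. The sum of the 8 beta cell markers, most of it the insulin gene Ins2, went from 465396 to 542366 FPKM up to 830022 to 864024 FPKM in floxed islets. In deleted islets it went from 445448 to 573465 FPKM up to 802810 to 853919 FPKM. By group mean Pdx1 (22.9 to 19.3 FPKM), Slc2a2 (30.4 to 25.3), Mafa (1.91 to 1.44) and G6pc2 (380 to 365) went down in floxed islets. Ins1, Ins2, Iapp and Nkx6-1 went up there, and all 8 went up in deleted islets. The part of these cell types in the diet results was not tested.

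Of the 69 tested pathway genes, 17 fell and 5 rose with the diet in floxed islets, and 9 fell and 4 rose in deleted islets. Over all tested genes 13.5% fell and 15.0% rose in floxed islets, and 5.91% fell and 9.05% rose in deleted islets. In floxed islets the calls with the smallest p were Cd36 (-0.98), Angptl4 (1.15), Ets1 (-0.83), Itga5 (-1.14), Thbs1 (-0.73) and Cxcl12 (-0.93). In deleted islets they were Ets1 (-1.05), Itga5 (-1.05), Foxo1 (0.51), Angptl4 (0.64), Itgb1 (-0.29) and Hif1a (-0.35). Vegfa was not called in either genotype (-0.18 and 0.05), nor Angpt2 (-0.14 and 0.00), Adm (0.03 and 0.34) or Klf2 (-0.21 and -0.32). Jag1 fell in floxed islets (-0.49, limma adjusted p = 0.0436) and was at -0.36 in deleted islets (limma adjusted p = 0.187).

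**Figure D4:**
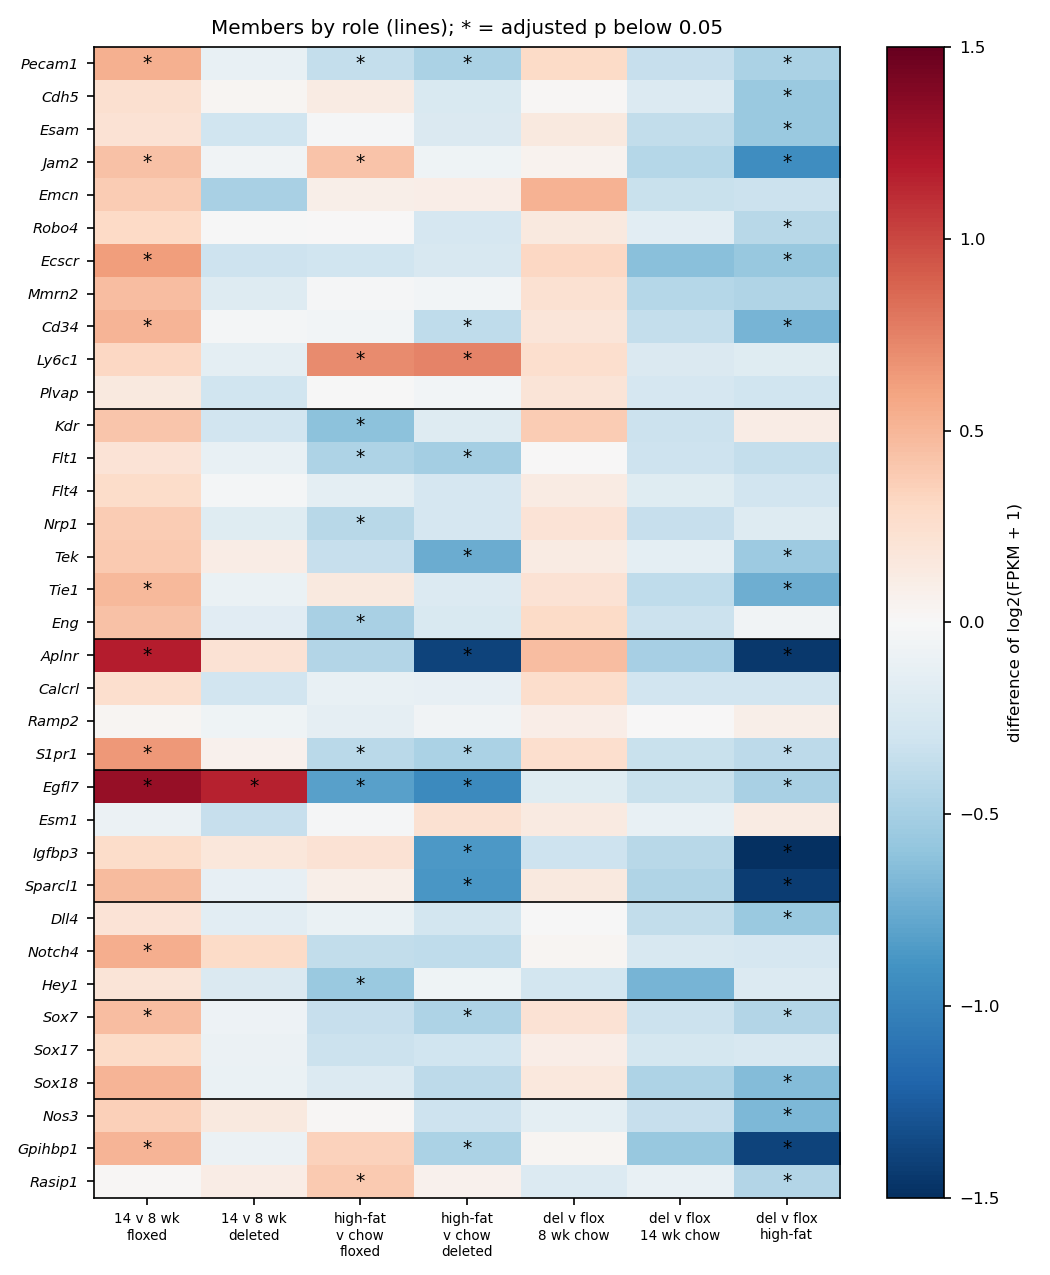
Difference of log2(FPKM + 1) (colour, red above and blue below 0) for the 35 tested members (rows, grouped by role between the lines) in 7 comparisons (columns), with an asterisk where the adjusted p was below 0.05. The column for age in floxed islets is nearly all red with 11 calls, that for age in deleted islets has 1 call, for Egfl7, and the column for genotype on the high-fat diet has 20 calls, all blue.

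With age on chow, 11 of 35 members rose in floxed islets and none fell, beside 3.20% and 0.948% of all tested genes. The median difference between 14 and 8 weeks was 0.38 over the members and -0.02 over all tested genes, and 34 members were above 0. By limma 24 had an unadjusted p under 0.05, all above 0. Such counts, here and for deleted islets, stand without the share of all tested genes and are descriptions only. In deleted islets 1 member rose and none fell, beside 2.35% and 0.564% of all tested genes, with a median of -0.10 and 7 members at an unadjusted p under 0.05 by limma. Egfl7 was the one that rose in both. It went from 9.10, 10.2 and 11.0 FPKM to 25.5, 25.2 and 28.9 FPKM in floxed islets (1.31, SE 0.11, limma adjusted p = 1.07e-06) and from 7.21, 9.58 and 9.74 FPKM to 20.0, 24.3 and 18.4 FPKM in deleted islets (1.16, SE 0.11, limma adjusted p = 5.68e-06). Its interaction of genotype and age was -0.15 (limma adjusted p = 0.859).

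The other 10 that rose in floxed islets came from most roles. Aplnr went from 0.724, 1.76 and 1.24 FPKM to 3.56, 3.96 and 4.46 FPKM (1.18, SE 0.20, limma adjusted p = 0.00149), and S1pr1 from 13.2, 14.8 and 16.0 FPKM to 22.0, 21.7 and 27.0 FPKM (0.65, SE 0.10, limma adjusted p = 0.000786). In deleted islets Aplnr measured 1.56, 2.76 and 1.91 FPKM at 8 weeks and 3.74, 1.96 and 2.15 FPKM at 14 weeks, which overlap. Ecscr (0.62), Notch4 (0.54), Pecam1 (0.53), Cd34 (0.51), Gpihbp1 (0.51), Tie1 (0.49), Sox7 (0.47) and Jam2 (0.44) made up the rest. The genotypes are not shown to differ in any of these, since no interaction with age passed the test.

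The count for age in floxed islets varied with the libraries used. It was 4 without library 2 and 5 without library 3 of the floxed chow group at 14 weeks, and 5, 7 and 7 without library 1, 2 or 3 of the floxed group at 8 weeks. Egfl7, Aplnr, S1pr1 and Pecam1 were called in every alternative that tested them (the filter on a mean of 5 FPKM left Aplnr out), while Notch4 was called in 6 of 25. Between 8 and 14 weeks on chow the acinar markers went from 78.4 to 214 FPKM to 906 to 4522 FPKM in floxed islets, and from 37.7 to 1166 FPKM to 1367 to 2514 FPKM in deleted islets. The macrophage markers went from 219 to 252 FPKM to 334 to 380 FPKM and the mural markers from 13.1 to 15.5 FPKM to 19.9 to 26.9 FPKM in floxed islets, and from 230 to 252 FPKM to 267 to 332 FPKM and from 13.3 to 15.7 FPKM to 11.9 to 17.0 FPKM in deleted islets. The erythroid markers went from 1.33 to 3.95 FPKM to 9.43 to 14.3 FPKM in floxed and from 4.21 to 8.70 FPKM to 15.1 to 16.7 FPKM in deleted islets, without overlap in either. The beta cell markers went from 614380 to 631038 FPKM to 465396 to 542366 FPKM in floxed islets, and overlapped in deleted islets. The part of these cell types in the rise with age was not tested.

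Of the pathway genes, 14 of 69 rose with age in floxed islets and none fell, beside 3.20% and 0.948% of all tested genes. By limma 29 had an unadjusted p under 0.05, a description only without the share of all tested genes. The calls with the smallest p were Thbs1 (0.84), Ctla2a (0.71), Ets1 (0.61), Podxl (0.63), Tm4sf1 (1.06) and Itga5 (0.79), and Angpt2 rose as well (0.36, limma adjusted p = 0.0423). In deleted islets none rose and 1 fell, Rgcc (-0.68, limma adjusted p = 0.0212), beside 2.35% and 0.564% of all tested genes. There 9 had an unadjusted p under 0.05 by limma, likewise a description only. Vegfa, at -0.06 in floxed and -0.03 in deleted islets, was not called, nor were Adm, Jag1 and Klf2 in either genotype.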

How the data were processed

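Total RNA of isolated islets was turned into cDNA (SMART-Seq HT) and then Nextera libraries, per the labels' protocols. Strand is not marked by this preparation. Each of the 18 libraries has 1 deposited table of FPKM per gene symbol, for which the submitters' processing notes name the build mm10 with Cufflinks 2.2.1, TopHat2 2.0.13, SAMtools 0.1.19 and Bowtie2 2.2.3. That the unit is FPKM follows from the use of Cufflinks and the range of the values, since neither labels nor headers name it. The annotation used is not given in the sources used here. Median ratios of the libraries to their common reference lay between 1.0037 and 1.0079, so the values look rescaled before deposit, how is not stated, and no further scaling was applied.

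With limma 3.58.1 (R 4.3.3, statmod 1.5.0), log2(FPKM + 1) was fitted to 6 group means, with trend and robust moderation, over genes that reached 1 FPKM in 3 or more libraries, and 10 contrasts were adjusted over all 12234 tested genes. The fit was tested on simulated data. The members, pathway and marker lists were chosen with earlier results of these data known. Named were the members and, of the pathway lists, up to 6 called genes with the smallest p, Vegfa, Angpt2, Adm, Jag1 and Klf2. Promoters were read from RefSeq (GRCm38.p6). Alternatives were the replicate number as a block, sample quality weights, a pseudocount of 0.1, each library left out, quantile normalization, a fit on the compared groups alone, median-ratio scaling, no filter, and a filter on a mean of 5 FPKM. Same-numbered libraries were not paired by the labels. Python 3.11.15 with matplotlib 3.10.9, pandas 2.3.3 and numpy 2.4.6 was used for tables and plots.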

Additional observations from a re-analysis of the deposited data

Results flagged for a closer look

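For 3 members the effect of genotype on the high-fat diet differed from that on chow at 14 weeks by a test of the interaction itself. The values on the log2(FPKM + 1) scale were -1.08 for Igfbp3 (limma adjusted p = 0.00561), -0.97 for Sparcl1 (limma adjusted p = 0.0134) and -0.82 for Gpihbp1 (limma adjusted p = 0.0271). The call for Gpihbp1 was lost in 10 of 26 alternatives, with limma adjusted p up to 0.0761, and those for Igfbp3 and Sparcl1 held in all 26. In each of the 3 genes the 3 deleted libraries on the high-fat diet lay below the 3 floxed ones.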

How the results depend on the processing

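Of 72 member calls over the 10 comparisons, 43 held in every alternative that tested them and 29 were lost in at least 1, and none changed direction. A filter on a mean of 5 FPKM, under which 21 members are tested, gave 13 members called for genotype on the high-fat diet and 7 for age in floxed islets, and no filter on low values gave 7 for age in floxed islets. Sample quality weights gave 1 call for genotype at 8 weeks, 4 for genotype at 14 weeks on chow, 4 for age in deleted islets, 5 for the interaction with diet and 6 for the interaction with age. The cause was not tested. With 1 library left out the counts ran from 13 to 21 for genotype on the high-fat diet, 0 to 1 for genotype at 14 weeks on chow, 4 to 13 for age in floxed islets, 2 to 4 for the interaction with diet and 0 to 1 for the interaction with age. Such a fit assumes that the reduced group varies as the full ones do.

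With the replicate block, 20 members were called for genotype on the high-fat diet (19 of them also in the fit without it) and 1 for the interaction with age. Same-numbered libraries deviated together with r between -0.159 and 0.166. Different-numbered libraries were not compared, so these values cannot decide whether the numbers pair the samples. Depth is unknown, which limits what can be said of the 5 members below the filter.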
